A study of Homo sapiens with 6 samples.

Results

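Long noncoding RNA (lncRNA) genes were examined in MDA-MB-231 cells after 24 h with the agent CTI-2. MDA-MB-231 is an established line of triple-negative breast cancer cells. The 83 lncRNA genes are the rows that the authors' gene table types as known lncRNA genes (52) or as lncRNA genes new to the annotation (31), out of 16362 rows in all. The 31 are called unannotated below. The rule that picks them uses this type and no measured value. The other rows are 14408 known genes, nearly all protein-coding, and 1871 new genes of neither lncRNA type.

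The study holds 3 libraries of CTI-2-treated cells and 3 control libraries of cells that received no agent, per the labels. All 6 come from the same line, and the labels do not say whether they came from separate cultures, so p-values measure the spread between these libraries, which may be technical. The sources used here give neither the dose of CTI-2 nor any vehicle in the controls. Full-length cDNA was amplified and sequenced on an Oxford Nanopore device, which reads each molecule as one long read, and the authors counted reads per gene.

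LncRNAs are transcripts, usually spliced and polyadenylated, that carry no long conserved reading frame. Many are transcribed antisense to a coding gene or away from a promoter that they share with one (a divergent transcript). Most are present at low levels per cell, and several that have been studied act in the nucleus on chromatin or splicing, while others bind proteins or microRNAs in the cytoplasm. In breast cancer cells individual lncRNAs have been described as markers of invasive or stress states.

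Of the 83 genes, 13 carry an Ensembl identifier and a gene symbol, 39 are known by an identifier of the NONCODE lncRNA catalogue alone, and the 31 unannotated ones carry only the authors' own locus number (ONT. and a number). In GENCODE 29, the annotation used here for the named genes, 8 of the 13 are antisense genes, 3 are intergenic and 2 are processed transcripts. Its coordinates are on GRCh38, and the sources used here do not name the authors' build. No symbol or role is given to the NONCODE and ONT. genes, because nothing at hand annotates them. The 6 lists searched held 135 lncRNA symbols (nuclear and architectural, snoRNA hosts, microRNA hosts, stress-responsive, cancer-associated and housekeeping lncRNAs). Of these, 0 matched the symbols of the 13 and 2 matched known genes. The NONCODE and ONT. genes carry no symbol to match, so such lncRNAs as MALAT1 and NEAT1 could not be looked for among them. They are not analysed by name here.

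The sequences of 3 promoters and 1 transcript stretch are shown because the results below turn on these genes: DLEU1 has the highest mean CPM of the lncRNA genes and rose, MRPL20-AS1 and CH17-340M24.3 each share a start region with a coding gene, and GSEC is known for a guanine-rich stretch. Each promoter runs from 250 bases before to 50 bases after the RefSeq start (GRCh38.p14), 5′ to 3′ on the gene's own strand. Capitals mark 3 short motifs, read on either strand. The GC box is spelled GGGCGG. The CCAAT box is spelled as its name says. The ETS core, bound by factors of the ETS family, is spelled CCGGAA. The DLEU1 promoter is chr13:50081919-50082218 (plus strand), that of MRPL20-AS1 is chr1:1399280-1399579 (plus strand), and that of CH17-340M24.3, which RefSeq lists as ATP6AP1-DT, is chrX:154428430-154428729 (minus strand).
DLEU1 promoter: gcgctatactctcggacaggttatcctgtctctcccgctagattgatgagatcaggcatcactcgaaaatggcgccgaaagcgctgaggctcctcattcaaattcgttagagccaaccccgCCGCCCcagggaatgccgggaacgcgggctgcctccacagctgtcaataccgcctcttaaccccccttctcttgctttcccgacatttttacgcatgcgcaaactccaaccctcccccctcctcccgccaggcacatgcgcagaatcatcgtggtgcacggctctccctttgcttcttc
MRPL20-AS1 promoter: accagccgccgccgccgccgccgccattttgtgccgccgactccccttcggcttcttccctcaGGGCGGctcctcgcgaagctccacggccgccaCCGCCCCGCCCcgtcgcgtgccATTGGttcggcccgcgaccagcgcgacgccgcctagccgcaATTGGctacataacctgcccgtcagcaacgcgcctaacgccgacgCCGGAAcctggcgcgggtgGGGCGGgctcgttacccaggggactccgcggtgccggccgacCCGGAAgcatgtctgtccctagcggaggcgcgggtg
CH17-340M24.3 promoter: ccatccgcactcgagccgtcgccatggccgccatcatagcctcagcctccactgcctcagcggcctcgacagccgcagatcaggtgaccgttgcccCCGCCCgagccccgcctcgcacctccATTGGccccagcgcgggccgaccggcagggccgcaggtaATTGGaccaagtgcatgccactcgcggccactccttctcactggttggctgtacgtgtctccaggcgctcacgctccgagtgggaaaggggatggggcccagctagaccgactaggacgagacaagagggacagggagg
The DLEU1 promoter is 57.7% G and C, with 21 CpG dinucleotides and 1 GC box. The MRPL20-AS1 promoter is 73.3% G and C, with 46 CpG dinucleotides, 4 GC boxes, 2 CCAAT boxes and 2 ETS cores, 2 of the GC boxes overlapping by 1 base. The CH17-340M24.3 promoter is 67.7% G and C, with 26 CpG dinucleotides, 1 GC box and 2 CCAAT boxes. None of the 3 holds TATAAA on either strand, the letters to which the core initiation factor TBP is known to bind. Among 35116 RefSeq promoters of the same length, 45.0% hold a GC box, 34.6% a CCAAT box, 17.2% an ETS core and 11.5% TATAAA. These matches describe letters and show no binding.

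GSEC is named for a sequence that folds into a G-quadruplex, a 4-stranded structure of stacked guanines, and in colon cancer cells it is known to bind the helicase DHX36. The stretch below is from the 5′ end of the GENCODE 29 transcript GSEC-201, in which a run of 5 blocks of 3 or more G spans bases 6 to 36. Capitals mark the G blocks.
GSEC-201 stretch: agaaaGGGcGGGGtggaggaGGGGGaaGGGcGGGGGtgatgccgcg
At least 4 blocks of 3 or more G with 1 to 7 bases between them occur in 2 of 2 GSEC transcripts. The same pattern occurs in 5 of 8 transcripts of MRPL20-AS1, 1 of 2 of ZNF687-AS1, 1 of 3 of FLJ22447 and none of the 36 of DLEU1. It occurs in 6.72% of the 29566 lncRNA transcripts of GENCODE 29.

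Read totals were 2208261 to 3153469 in the CTI-2 libraries and 2349758 to 3929532 in the controls. Some genes that the line is known to lack had few or no reads: ESR1 and GATA3 had at most 2 reads in any library and CDH1 at most 1. CD44 had 131 to 188 and ANXA1 424 to 593 CPM (reads of the gene per 1000000 reads of its library), and KRT8 and KRT18 were present. Other markers were less clear: ERBB2 had 4.98 to 11.1 CPM, EPCAM 6.98 to 10.6 CPM and AXL only 2.98 to 7.41 CPM. Of genes looked up for other lineages, COL1A1 had 52.2 to 87.4 CPM, PECAM1 1.93 to 4.58 CPM and ALB at most 1 read in a library. VIM, a mesenchymal marker known to be abundant in this line, had 14.5 to 18.9 CPM, below CD24, an epithelial marker at 392.3 to 506.7 CPM, on a scale that is not per length. The control libraries differed from each other more than the CTI-2 libraries did (chi-square per degree of freedom of the counts 3.53 to 6.03 between controls, 1.68 to 2.26 between CTI-2 libraries). Without control library 2, calls over all tested genes numbered 957 higher and 653 lower, against 334 higher and 457 lower with all 6 libraries.

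The 83 lncRNA genes took a small share of all reads, and the groups differed in that share by less than the spread between libraries. Any lncRNA that the authors did not type as such is outside this share, so it is no measure of lncRNAs in general. The 83 genes held 0.0843%, 0.0861% and 0.0827% of the reads in the CTI-2 libraries and 0.0844%, 0.0809% and 0.0840% in the controls. The 95% exact binomial intervals of these shares overlapped in 6 of 6 libraries, reaching from 0.0781% to 0.0895% in all. The mean share was 0.0844 ± 0.00171% with CTI-2 and 0.0831 ± 0.00190% without (SD, n = 3 each), and an exact two-sided permutation test gave p = 0.5. With 3 against 3 libraries the smallest p is 0.1. The difference of 0.00125 percentage points turned to -0.00105 without DLEU1 and to -0.000373 with mitochondrially encoded genes left out of the totals. Known lncRNA genes held 0.0650 ± 0.000654% with CTI-2 and 0.0619 ± 0.00125% in controls, groups that did not overlap (exact permutation p = 0.1, n = 3 each). This difference of 0.00305 percentage points includes DLEU1, which averaged 86.3 CPM with CTI-2 and 63.3 CPM in controls. The known genes were not compared without DLEU1, nor with mitochondrially encoded genes left out of the totals. Unannotated lncRNA genes held 0.0194 ± 0.00125% with CTI-2 and 0.0212 ± 0.00133% in controls, groups that overlapped (exact permutation p = 0.2, n = 3 each). The new genes of neither type held 2.27 ± 0.193% with CTI-2 and 2.65 ± 0.354% in controls (SD, n = 3 each). Fewer cells expressing a gene and less RNA per cell cannot be told apart in such bulk libraries.

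The 83 genes had 14383 reads in the 6 libraries together, 10899 from known and 3484 from unannotated ones. The 10 most counted held 46.4% of them, 36 genes had at least 100 reads in total, and 78 had a read in all 6 libraries. The median over genes of the mean level was 4.91 CPM for lncRNA genes, 8.84 CPM for known genes and 2.18 CPM for the new genes of neither type, on a scale that is not per length. The median length of the locus, from first to last base as deposited, was 6115 bases for lncRNA genes (411 to 83312), 30156 for known genes and 579 for the new genes of neither type. Unannotated lncRNA loci had a median of 8091 bases and known ones 4359.5 bases.

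After CTI-2, 3 lncRNA genes passed the threshold: DLEU1 and NONHSAG034414.3 rose and the unannotated gene ONT.3464 fell. Only 54 of the 83 genes passed edgeR's filter on low counts and could be tested, 34 known and 20 unannotated. The 3 called genes are 5.56% of those 54, against 8.03% of all 9848 genes tested (adjusted p under 0.05, edgeR's quasi-likelihood test with Benjamini-Hochberg adjustment). By direction, 3.39% of all tested genes were called higher and 4.64% lower. At an unadjusted p under 0.05 the lncRNA genes numbered 14, 7 higher and 7 lower, or 25.9%, against 23.9% of all tested genes. Over all levels the share of lncRNA genes that passed was near that of genes in general by the count at an unadjusted p. By the adjusted one it was lower, a difference that rests on 3 genes and was not tested. Most of the 54 lay under 4 on the fitted log2 CPM scale, where 4.18% of all tested genes were called.

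The median log2 fold change (CTI-2 over control) of the 54 genes was 0.14, with a range of -1.07 to 1.13, beside a median of -0.01 over all tested genes. Of the 54, 34 had a positive and 20 a negative fold change, and only 2 were beyond 1 in size. The lean to positive values depended on the filter. With no filter, the 83 lncRNA genes had a median of 0.02, 42 positive and 41 negative, beside a median of -0.04 over all genes. The median standard error was 0.27 for the lncRNA genes and 0.19 for all tested genes. In the plot of change against level, 38 of the tested lncRNA genes lay under 4 on the fitted log2 CPM scale. There, 4.18% of all tested genes were called, 7 genes higher and 156 lower. Among the 38, 1 was called, lower. At an unadjusted p under 0.05 there were 10 of the 38, 3 higher and 7 lower, or 26.3%. Of all 3900 tested genes under 4 there were 15.3%, 115 higher and 483 lower. At 4 or more, 10.6% of all tested genes were called, 5.50% higher and 5.06% lower. Among the 16 lncRNA genes at that level, 2 were called, both higher. A positive fold change was found in 12 of the 16 and in 3345 of all 5948 tested genes at that level. At low levels the test recovered few small changes in counts simulated for this comparison on 9883 genes. Under 4 log2 CPM it called 12.5% of the 16 genes changed 1.5-fold, 55% of the 20 changed 2-fold and 100% of the 18 changed 4-fold. The simulation gave both groups the same spread.

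**Figure D1:**
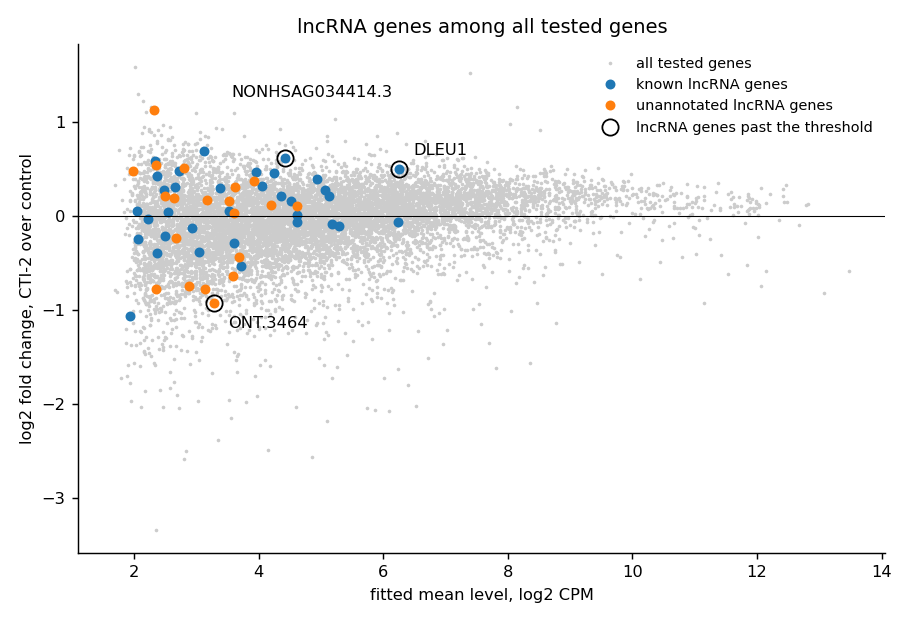
Log2 fold change, CTI-2 over control (vertical), against fitted mean level in log2 CPM (horizontal) for all tested genes (grey), known lncRNA genes (blue) and unannotated lncRNA genes (orange); open circles mark those past the threshold. The lncRNA genes lie between -1.07 and 1.13, mostly under 4 on the level axis, with DLEU1 and GSEC at the right.

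DLEU1 lies on chromosome 13 (50082171 to 50723236, plus strand, GENCODE 29) in the region that is deleted in chronic lymphocytic leukaemia, after which it is named. It had 84.4, 88.6 and 86.0 CPM in the CTI-2 libraries and 67.4, 60.1 and 62.6 CPM in the controls. Every CTI-2 library was above every control, and the spread within each group was small. The means were 86.3 ± 2.16 CPM with CTI-2 and 63.3 ± 3.74 CPM without (SD, n = 3 each), from 719 reads and 558 reads. The log2 fold change was 0.50 (SE 0.12, adjusted p = 0.0075, edgeR), a 1.41-fold higher level. It passed the threshold in each of the 16 other fits and subsets tried, with adjusted p from 0.0063 to 0.046. The authors' DLEU1 locus spans 23076 bases, 3.60% of the 641066 bases that GENCODE gives the gene, so the counted locus is a small part of it. GENCODE lists 36 transcripts for DLEU1, and the counts do not say which were read. DLEU7, a coding gene of the same region and the only other placed gene of the table that overlaps DLEU1, had at most 1 read in any library.

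NONHSAG034414.3, a known lncRNA gene of the NONCODE catalogue, also rose. It had 22.8, 26.6 and 24.9 CPM with CTI-2 and 19.6, 16.5 and 13.6 CPM in controls. The groups did not overlap, and the controls spread more widely (24.8 ± 1.90 CPM with CTI-2, 16.6 ± 3.01 CPM without, SD, n = 3 each). The log2 fold change was 0.61 (SE 0.19, adjusted p = 0.037, edgeR), a 1.53-fold higher level. It passed in 7 of the 16 other fits and subsets, and lost its call with 1 library left out in 4 cases. Its adjusted p was 0.055 without CTI-2 library 1, 0.14 without CTI-2 library 2, 0.091 without CTI-2 library 3 and 0.16 without control library 3.

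ONT.3464, an unannotated lncRNA gene, fell. It had 4.12, 9.10 and 4.53 CPM with CTI-2 and 13.5, 11.2 and 10.6 CPM in controls, from 13, 27 and 10 reads and from 35, 44 and 25 reads. All CTI-2 libraries were below all controls, and CTI-2 library 2 was closest to them. The log2 fold change was -0.92 (SE 0.29, adjusted p = 0.037, edgeR), or 1.90-fold higher in controls. It passed in 10 of the 16 other fits and subsets, and lost its call with 1 library left out in 4 cases. Its adjusted p was 0.20 without CTI-2 library 1, 0.14 without CTI-2 library 3, 0.12 without control library 1 and 0.065 without control library 2.

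**Figure D2:**
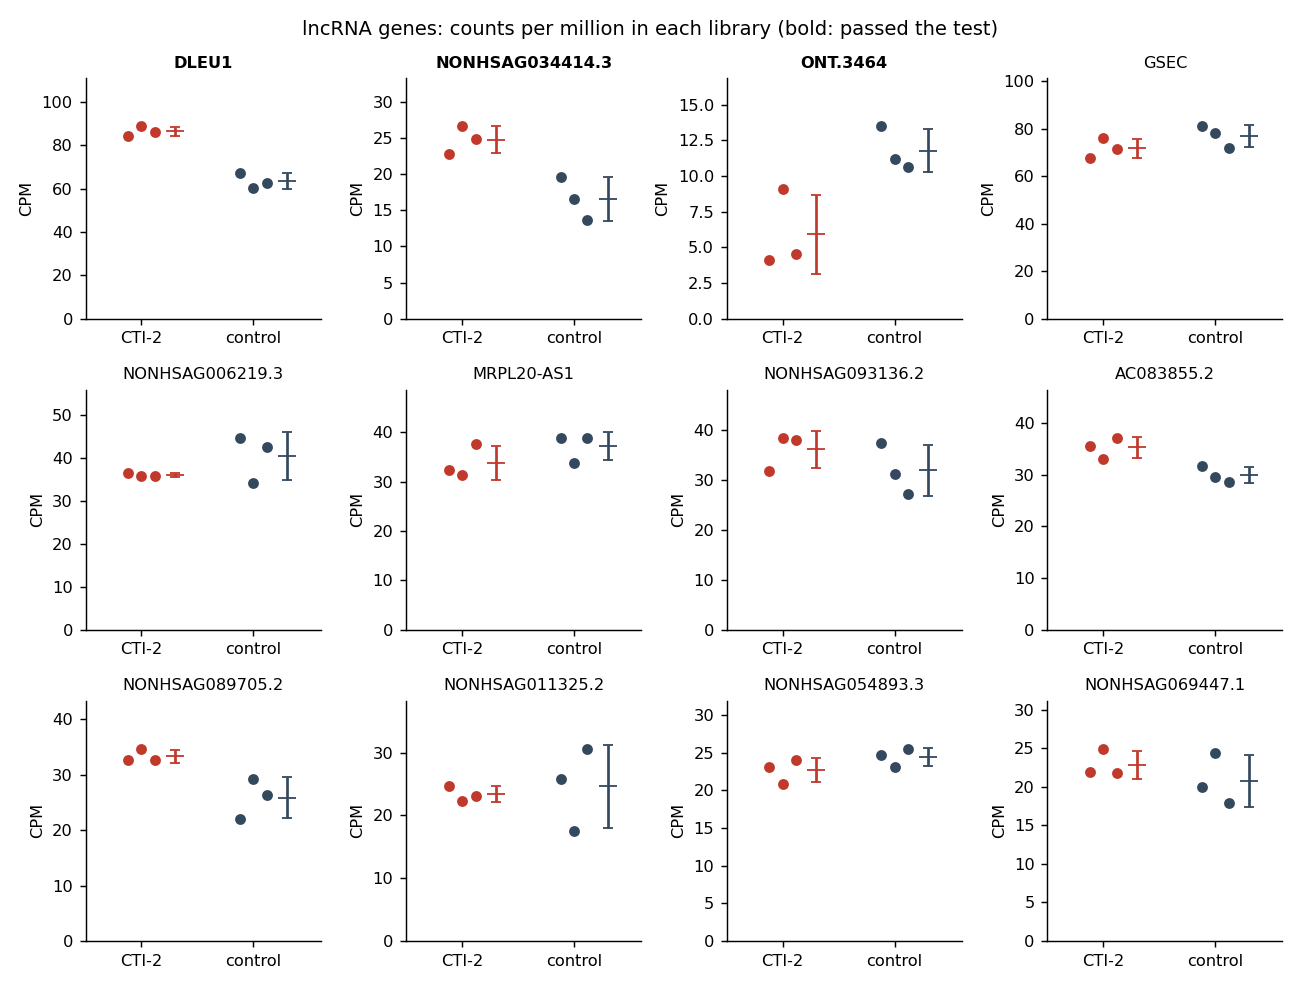
CPM (vertical) in each of 3 CTI-2 libraries (red, left) and 3 control libraries (dark blue, right) for the 3 genes that passed the test (bold titles) and the other known lncRNA genes of highest level; the bar beside the points is the mean ± SD. In DLEU1, NONHSAG034414.3, AC083855.2 and NONHSAG089705.2 every CTI-2 point is above every control point, in ONT.3464 every one is below, and in the rest the points overlap.

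The other lncRNA genes of high level did not pass the threshold. GSEC lies antisense on chromosome 11 (126340889 to 126355587, minus strand). It had 67.5, 75.8 and 71.6 CPM with CTI-2 and 80.9, 78.1 and 71.9 CPM in controls. The groups overlapped, and the log2 fold change of -0.06 had an SE of 0.12 and a 95% interval of -0.31 to 0.19 (adjusted p = 0.81). MRPL20-AS1, on chromosome 1 (1399522 to 1402046, plus strand), had 32.3, 31.3 and 37.6 CPM with CTI-2 and 38.9, 33.8 and 38.7 CPM in controls, groups that overlapped (log2 fold change -0.09, SE 0.15, adjusted p = 0.76).

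AC083855.2, an antisense gene on chromosome 3 (11193439 to 11225877, minus strand), had 35.5, 33.0 and 37.1 CPM with CTI-2 and 31.6, 29.5 and 28.5 CPM in controls. The groups did not overlap, but the gene missed the threshold (log2 fold change 0.28, SE 0.15, adjusted p = 0.27). NONHSAG089705.2 had 32.7, 34.7 and 32.6 CPM with CTI-2 and 22.0, 29.3 and 26.4 CPM in controls, also without overlap (0.39, SE 0.16, adjusted p = 0.13). It passed only in the subset without control library 2 (0.57, adjusted p = 0.027). The remaining 5 of the 10 known lncRNA genes of highest level, NONHSAG006219.3, NONHSAG093136.2, NONHSAG011325.2, NONHSAG054893.3 and NONHSAG069447.1, had log2 fold changes of -0.10 to 0.22 and overlapping groups.

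Of 34 known lncRNA genes tested, edgeR called 2 higher and 0 lower (6 higher and 2 lower at an unadjusted p under 0.05), with a median log2 fold change of 0.11. Of 20 unannotated genes tested, edgeR called 0 higher and 1 lower (1 higher and 5 lower at an unadjusted p under 0.05), with a median of 0.14. DESeq2, which called 6.39% of all genes it tested, called DLEU1 alone, and limma-voom, at 7.50% of all genes tested, called the same 3 genes as edgeR. Groups did not overlap in 8 of the known genes, 6 with CTI-2 above and 2 below, and in 6 of the unannotated genes, all with CTI-2 below. Together these 14 genes are 25.9% of the 54, against 28.8% of all tested genes (13.2% with CTI-2 above, 15.6% below). Among all tested genes under 4 on the log2 CPM scale the groups did not overlap in 171 with CTI-2 above and 660 below. The difference between known and unannotated genes was not tested. Of the 576 tested new genes of neither type, 5 were called higher and 49 lower, with a median log2 fold change of -0.25. The median of the 20 tested unannotated lncRNA genes was of the other sign, among genes that passed the filter, and this difference was not tested.

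Some unannotated genes came close to the threshold and are given here because of their values. ONT.3602 had 6.66, 5.06 and 5.89 CPM with CTI-2 and 1.93, 1.78 and 5.11 CPM in controls, from at most 21 reads in a library. Control library 3 lay among the CTI-2 libraries. The log2 fold change was 1.13 (SE 0.40, adjusted p = 0.070), and without control library 3 it was 1.66 (adjusted p = 0.029). ONT.4639 had 6.34, 6.74 and 3.62 CPM with CTI-2 and 8.47, 10.2 and 11.9 CPM in controls, with no overlap (-0.78, SE 0.29, adjusted p = 0.085). ONT.8029 had 10.1, 8.76 and 6.34 CPM with CTI-2 and 13.1, 12.2 and 17.02 CPM in controls, with no overlap (-0.64, SE 0.24, adjusted p = 0.092). Neither of these 2 passed in any of the 16 other fits and subsets.

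**Figure D3:**
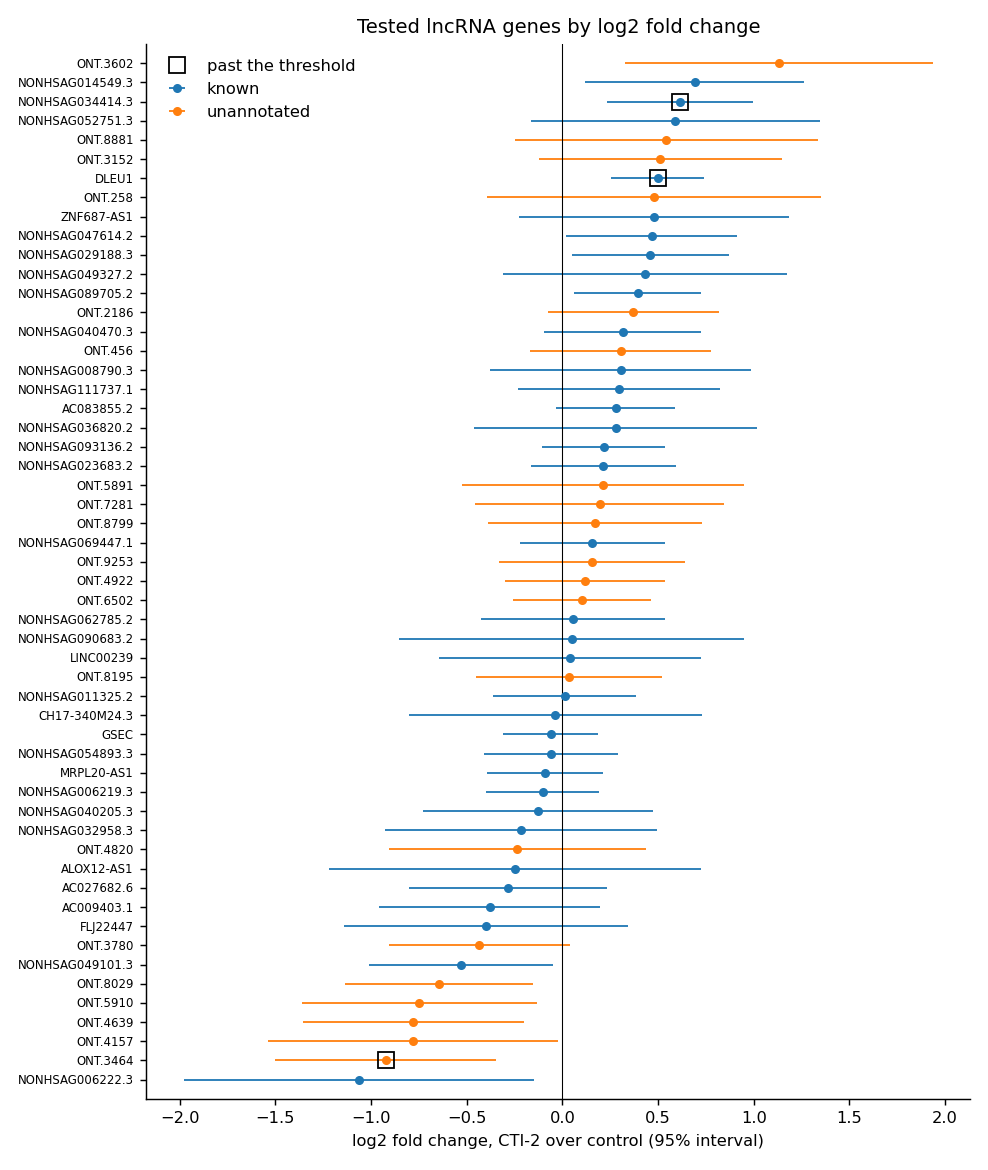
Log2 fold change, CTI-2 over control (horizontal), with its 95% interval for each of the 54 tested lncRNA genes, known (blue) and unannotated (orange), in order of fold change from the highest at the top; squares mark those past the threshold. The intervals of 40 genes include 0, and the called genes DLEU1 and NONHSAG034414.3 lie right of 0 and ONT.3464 left of it.

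The remaining genes with symbols were at low levels, and none of those tested passed. AC027682.6, antisense to RIPOR1, averaged 9.80 ± 2.56 CPM with CTI-2 and 12.2 ± 3.32 CPM in controls (SD, n = 3 each; log2 fold change -0.28, adjusted p = 0.53). AC009403.1, now named RBM33-DT, averaged 6.30 ± 0.861 CPM with CTI-2 and 8.43 ± 1.32 CPM in controls (-0.38, adjusted p = 0.44). ZNF687-AS1 averaged 6.87 ± 1.39 CPM with CTI-2 and 4.61 ± 2.41 CPM in controls (0.48, adjusted p = 0.42). LINC00239 had 4.44 to 5.89 CPM with CTI-2 and 4.24 to 5.53 CPM in controls (0.04, adjusted p = 0.96). FLJ22447, now LINC03033, had 2.70 to 4.53 CPM with CTI-2 and 4.26 to 6.16 CPM in controls (-0.40, adjusted p = 0.54). ALOX12-AS1 had 16, 8 and 2 reads with CTI-2 and 12, 7 and 14 reads in controls, and CTI-2 library 3 was the lowest (-0.25, adjusted p = 0.80). C1QTNF1-AS1 and AP001318.2, now TIRAP-AS1, were too low to test. AP001318.2 had 1 read in each CTI-2 library and 1, 11 and 5 reads in the controls.

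Coding neighbours of the named lncRNA genes were compared with them. By GENCODE's coordinates, 7 of the 13 start within 1000 bases of the start of a coding gene on the other strand (8 such pairs). The length of the authors' locus was within 2% of the GENCODE gene in 7 of the 13. It was 4.82% of it for AC009403.1, 7.66% for ALOX12-AS1 and 6.41% for AC083855.2. Where those counted loci lie is not given, so the starts and overlaps below are those of GENCODE. In 5 of the 8 pairs the genes share no base and run away from each other. In the other 3, AC009403.1 with RBM33, ZNF687-AS1 with ZNF687 and AP001318.2 with DCPS, the lncRNA gene starts inside the coding gene and crosses its start. The sources used here do not say whether counting used strand, so reads of an antisense gene and of the gene it overlaps cannot be told apart with certainty. Of 17 counted genes that overlap one of the 13 or start within 5 kb of it, 11 were tested and 2 passed, ATP6AP1 and MRPL20, or 18.2%, beside 8.03% of all tested genes. So few genes do not show that the neighbours differ from genes in general, and this was not tested.

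ATP6AP1, an accessory subunit of the vacuolar proton pump, fell while its divergent partner CH17-340M24.3 did not pass. The 2 genes start 153 bases apart on chromosome X and the promoter window shown above holds both starts. ATP6AP1 had 52.6, 80.2 and 80.6 CPM with CTI-2 and 164, 139 and 157 CPM in controls. All CTI-2 libraries were far below all controls (log2 fold change -1.06, SE 0.13, adjusted p = 2.5e-06, 2.09-fold higher in controls), and it passed in 16 of 16 other fits and subsets. CH17-340M24.3 had 4.12, 4.05 and 3.17 CPM with CTI-2 and 4.24, 4.33 and 3.40 CPM in controls, from 13, 12 and 7 reads and from 11, 17 and 8 reads. Its groups overlapped, and its interval was wide (log2 fold change -0.04, SE 0.38, 95% interval -0.80 to 0.73, adjusted p = 0.97). The log2 ratio of CH17-340M24.3 to ATP6AP1 reads was -3.62, -4.25 and -4.57 with CTI-2 and -5.21, -4.97 and -5.44 in controls. The groups did not overlap, with a difference of 1.06 (exact two-sided permutation p = 0.1, the smallest possible, n = 3 each; 0.6 after Benjamini-Hochberg adjustment over 12 pairs).

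MRPL20, which encodes a protein of the large mitochondrial ribosomal subunit, rose while MRPL20-AS1, on the opposite strand, did not pass. The 2 genes overlap by 139 bases at their 3′ ends. MRPL20 had 419, 450 and 452 CPM with CTI-2 and 324, 357 and 312 CPM in controls, without overlap (log2 fold change 0.46, SE 0.11, adjusted p = 0.0083). It lost its call without CTI-2 library 2, CTI-2 library 3 or control library 1 (adjusted p up to 0.064). The log2 ratio of MRPL20-AS1 to MRPL20 reads was -3.69, -3.84 and -3.58 with CTI-2 and -3.05, -3.39 and -3.00 in controls, without overlap (difference -0.55, exact permutation p = 0.1, n = 3 each, 0.6 adjusted over the 12 pairs). On the other side, CCNL2, a cyclin that takes part in splicing, starts 194 bases from MRPL20-AS1 and runs away from it. CCNL2 had 43.8, 46.2 and 39.9 CPM with CTI-2 and 77.04, 43.0 and 71.9 CPM in controls, where control library 2 lay among the CTI-2 libraries (log2 fold change -0.48, SE 0.15, adjusted p = 0.052, 0.0019 without control library 2). CCNL2 passed in 6 of the 16 other fits and subsets, most of them with all 6 libraries.

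In the other 10 of the 12 pairs the log2 ratios overlapped between groups. GSEC and ST3GAL4, a sialyltransferase gene that starts 53 bases away, had log2 fold changes of -0.06 and 0.08. GSEC also overlaps DCPS, the scavenger decapping enzyme gene, at 0.09. AC009403.1 and RBM33, an RNA-binding protein gene that starts 754 bases away, had -0.38 and -0.33. AC083855.2 and HRH1, the histamine H1 receptor gene that it overlaps, had 0.28 and 0.45. ZNF687-AS1 and the zinc finger gene ZNF687, whose starts are 311 bases apart, had 0.48 and -0.39. None of the genes named here but ATP6AP1 and MRPL20 passed the threshold.

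**Figure D4:**
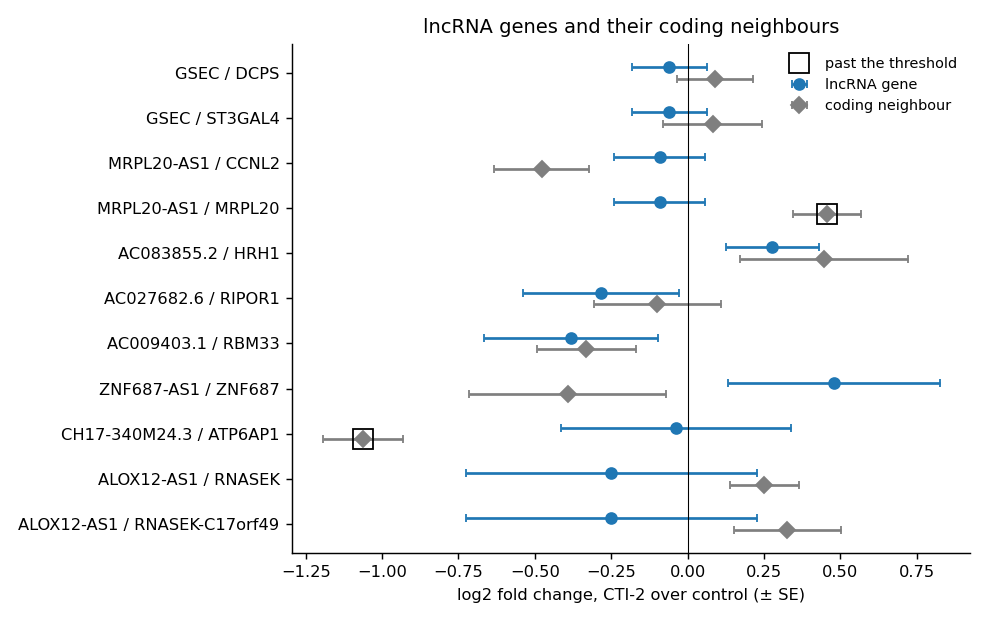
Log2 fold change ± SE, CTI-2 over control (horizontal), of each tested lncRNA gene (blue circle) and its tested coding neighbour (grey diamond), 1 pair per row; squares mark genes past the threshold. ATP6AP1 at -1.06 and MRPL20 at 0.46 stand away from CH17-340M24.3 at -0.04 and MRPL20-AS1 at -0.09.

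The 29 lncRNA genes that were not tested, 18 known and 11 unannotated, had 1 to 89 reads in all 6 libraries together (median 35) and 7.10% of all lncRNA reads. Their mean was lower with CTI-2 in 22 and higher in 7, and their groups did not overlap in 7 with CTI-2 below and 1 above. Among all 6514 genes that were not tested, which were not matched to these on level, the groups did not overlap in 8.34% with CTI-2 below and 1.90% above. Because the filter keeps genes by their level, these counts describe the genes and show no change. With no filter, 2 of these 29 genes were called lower. Among all 16362 genes 567 were then called lower and 315 higher, or 5.39% in either direction. NONHSAG021882.3 had 11, 8 and 6 reads with CTI-2 and 27, 29 and 8 in controls (log2 fold change -1.20, adjusted p = 0.026). NONHSAG047803.3 had 3, 1 and 2 reads with CTI-2 and 7, 13 and 7 in controls (-1.97, adjusted p = 0.040), so that each CTI-2 library was at or under the 3 reads that a count of 0 allows. ONT.6000 had 1 read in 1 CTI-2 library and none elsewhere.

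Genes that encode proteins linked to lncRNAs were also looked at, from 2 lists and at the RNA level only. Of 16 genes of paraspeckle proteins, which assemble nuclear bodies on an lncRNA scaffold, 15 were tested and edgeR called 0, DESeq2 0 and limma-voom 0, with 2 higher and 2 lower at an unadjusted p under 0.05 and a median log2 fold change of 0.01. Of 17 genes of nonsense-mediated decay, the pathway that degrades many noncoding transcripts in the cytoplasm, 17 were tested and 1 passed, MAGOH, a core subunit of the exon junction complex, which rose (log2 fold change 0.53, SE 0.12, adjusted p = 0.0040). In that list 2 were higher and 2 lower at an unadjusted p under 0.05. Among all tested genes edgeR called 8.03%, DESeq2 6.39% and limma-voom 7.50%. The median of that list was 0.00, beside -0.01 over all tested genes.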

How the data were processed

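Per the labels' protocols, RNA was taken up in Trizol and cDNA-PCR libraries were prepared for Oxford Nanopore sequencing. Per the submitters' processing notes, minimap2 was used. The sources used here give no version, genome build, counter or filter. Whole-number counts of reads for each gene and library are as deposited. The CPM the authors deposited matched, within 1e-06, the count over the library total times 1000000. Reads carry no molecular identifiers, so intervals cover counting error only.

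Groups follow the labelled agent. filterByExpr kept 9848 of 16362 genes, whose counts went with TMM scaling into the robust quasi-likelihood test of edgeR 4.0.16 in R 4.3.3, CTI-2 minus control, with p-values adjusted by Benjamini-Hochberg over all tested genes and a threshold of 0.05. SEs and 95% intervals came from the fold change and the F statistic, and the common biological CV was 0.100. The test was tested on data simulated for this comparison on 9883 genes. Of 64 genes each changed 1.5-fold, 2-fold and 4-fold it recovered 50%, 84.4% and 100%, with 6 of 156 calls false. All genes were simulated with that common biological CV, which leaves out differences in spread between genes and between groups. DESeq2 1.42.0, limma 3.58.1, other scalings, filters, a replicate block, thinning, and leaving out libraries were alternatives.

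Shares and log2 ratios between neighbours (0.5 reads added) were compared by exact permutation. The genes named were all called ones, the 10 known lncRNA genes of highest mean CPM, those with symbols, and counted genes that overlap or start within 5 kb of them; unannotated genes that missed the threshold and untested genes were named after their values were seen. The members and lists were chosen with earlier results of these data known. Promoters were read from RefSeq (GRCh38.p14; 9 of 13 genes with symbols matched) and transcripts from GENCODE 29. No same-group libraries agreed within sampling noise.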

Additional observations from a re-analysis of the deposited data

How the results depend on the processing

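In the main fit, on the genes that passed edgeR's filter, the lncRNA genes called numbered 2 higher and 1 lower of 54, beside 791 of all 9848 genes. They numbered the same with DESeq2's size factors in edgeR (807 of all 9848 genes) and with limma-voom (739 of 9848). With a minimum of 20 counts in 3 libraries they were the same, of 32 tested, beside 743 of all 8241 genes. They were 1 higher and 0 lower with library totals (682 of all 9848 genes) and at an adjusted p of 0.01 (306 of 9848). With DESeq2 they were also 1 higher and 0 lower, of 31 tested, beside 498 of all 7797 genes. They were 1 higher and 1 lower with limma on log2(CPM + 1) (754 of 9848) and on log2(CPM + 0.5) (737 of 9848). Thinned to the smallest total they were 1 higher and 1 lower of 49, beside 743 of all 9396 genes. With no filter they were 2 higher and 3 lower of 83, beside 882 of all 16362 genes. Leaving out 1 library in turn gave 1 to 3 higher and 0 to 2 lower. Over all genes it gave 400 calls (of 10460 genes) to 1610 calls (of 9995). The most were without control library 2, where NONHSAG034414.3, NONHSAG089705.2, DLEU1, NONHSAG024587.3 and NONHSAG049101.3 were called. The cause was not tested. Library totals moved the median of all tested genes to -0.06.

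The replicate block left the calls at 2 higher and 1 lower of 54, beside 942 of all 9848 genes. Same-numbered libraries deviated from their group means with correlations of -0.06, 0.005 and -0.12. Libraries of different number had -0.09 to 0.14. With 3 libraries per group these values cannot settle whether the numbers pair the libraries, and the labels do not say.

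The difference in the lncRNA share of reads, 0.00125 percentage points, was -0.00105 without DLEU1 and -0.000373 without mitochondrially encoded genes in the totals, and 0.000155 to 0.00208 when 1 library was left out. Log2 fold changes near 0 changed sign in some settings. NONHSAG011325.2 (0.01) was at -0.0454 with library totals, -0.00990 with the minimum of 20 counts, -0.0424 with limma on log2(CPM + 1), -0.0425 on log2(CPM + 0.5) and -0.0711 with thinning, and LINC00239 (0.04) at -0.000265 with library totals. With 1 library left out, GSEC ranged over -0.13 to 0.00616, NONHSAG011325.2 over -0.17 to 0.16, NONHSAG054893.3 over -0.0983 to 0.00459, AC027682.6 over -0.49 to 0.0570, LINC00239 over -0.0721 to 0.16, CH17-340M24.3 over -0.15 to 0.0977 and ALOX12-AS1 over -0.93 to 0.0832. Few reads per gene limit the test: 29 of 83 lncRNA genes could not be tested.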

Other observations

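Among the 54 tested lncRNA genes, control library 3 held the highest CPM in 10 and the lowest in 13, and CTI-2 library 2 the highest in 14 and the lowest in 5. The median coefficient of variation over libraries was 16.6% with CTI-2 and 16.1% in controls. NONHSAG006222.3 had the lowest log2 fold change of those tested, -1.07 (SE 0.45, adjusted p = 0.14), from 8, 6 and 2 reads with CTI-2 and 11, 17 and 9 reads in controls. NONHSAG014549.3 had the highest among known ones, 0.69 (SE 0.28, adjusted p = 0.12), with 7.29, 12.1 and 9.96 CPM with CTI-2 and 6.93, 6.11 and 5.53 CPM in controls. Neither passed the threshold, and in both every library of 1 group was beyond those of the other.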
